A study of Mus musculus with 4 samples.

Results

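The genes described here are 43 genes of the cell cycle and of DNA replication, chosen by symbol because they report S phase and mitosis in dividing precursors. They were read from RNA-Seq counts of 1° mouse oligodendroglial cells (OGCs), in which 53465 genes are listed. All 43 had enough counts to be tested, among 15766 genes that had. The cells came from forebrain of mice at P2 to P4, through mixed glial cultures, shake-off and depletion of microglia, and were grown in PDGF-AA and bFGF. These mitogens were then replaced by CNTF, and RNA was taken 3 days later (3ddiff). The 2 ctrl libraries came from Zfp276 flox/flox mice without Cre. The 2 Zfp276cko libraries came from mice with Sox10::Cre tg and Zfp276 flox/flox, in which exons 2 to 5 of Zfp276 are flanked by loxP sites. Cre is driven by Sox10 sequences on a BAC and works in the oligodendroglial lineage, beginning with oligodendrocyte precursor cells (OPCs), so that other cells of a culture keep the gene. The mice used for culture also carried a Rosa26 stopflox tdTomato reporter, by which Zfp276cko newborns were recognised. Their background was mixed (C3H x C57Bl/6J), and each library was a separate preparation pooled from several mice.

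A cell that divides passes from G1 into S phase, where its DNA is copied, and through G2 into mitosis. D-type cyclins with Cdk4 or Cdk6 receive mitogen signals in G1 and inactivate the retinoblastoma protein, which releases E2F factors that switch on genes for DNA replication. Genes for mitosis come on later, through B-Myb, FoxM1 and the MuvB complex at promoter elements named CHR. OPCs divide in response to PDGF, and they leave the cell cycle when they differentiate into oligodendrocytes.

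The ctrl libraries held 21311469 and 21068322 counted reads, and the Zfp276cko libraries 25265366 and 26599809. Values below are normalized counts, that is, counts scaled to the common library size by the TMM method of edgeR, and differences are on the log2 scale. For Zfp276 itself, ctrl replicates 1 and 2 gave 1648 and 2230.3 normalized counts, and Zfp276cko replicates 1 and 2 gave 489.5 and 503. Its log2 fold change was -1.97 (SE 0.18), with an adjusted p of 0.0962 in the quasi-likelihood test of edgeR after Benjamini-Hochberg adjustment and 1.16e-14 in DESeq2. The Zfp276cko libraries were lower than either ctrl library, as their labels say. A count over the whole gene also takes in exons outside the deleted part, and 19.4% of its exon length lies opposite exons of Fanca and Vps9d1. The paper also describes the deletion as incomplete, from staining for Zfp276 in the spinal cord of postnatal Zfp276cko mice. Of the markers of OPCs and oligodendrocytes, Pdgfra, the PDGF receptor of OPCs, lay between 10049 and 15501 normalized counts and Mbp, a major myelin protein, between 87161 and 177958. Aspa, an enzyme of oligodendrocytes, was low throughout, between 58.2 and 109, but higher in both Zfp276cko libraries than in either ctrl library. Its log2 fold change of 0.48 (SE 0.31, adjusted p = 0.519 with edgeR) was the highest of the 12 oligodendrocyte genes. Opalin, a myelin protein, had 1504 and 215 in ctrl and 98.6 and 98.8 in Zfp276cko cultures.

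Libraries of the same genotype were not equally alike. The biological coefficient of variation was 0.354 between the ctrl libraries and 0.048 between the Zfp276cko libraries. Chi-square per degree of freedom was 86.8 and 5.55, which served only to check that no library repeated another. Ctrl replicate 1 stood apart. Genes of fibroblasts and vessels summed to 15012 normalized counts in it, against 1206 in ctrl replicate 2 and 951 and 870.3 in Zfp276cko cultures. For the medians of gene groups and for selected genes, differences from a single ctrl library are therefore given below beside those from both.

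Cell cycle genes took up 0.207% of counted reads in ctrl replicate 1, 0.304% in ctrl replicate 2, and 0.290% and 0.296% in Zfp276cko replicates 1 and 2. Their summed normalized count was 52261, 72065, 66382 and 67651 in the same order. Ctrl replicate 1 was thus low, and the other 3 libraries lay close together. It was the lowest of the 4 libraries for 39 of the 43 genes, compared with 33.3% of all tested genes. The 4 exceptions were Ccnd1, Ccnd3, Cdk6 and Cdkn1b, all of which act in G1. Ctrl replicate 2 exceeded ctrl replicate 1 for 41 genes, with a median log2 difference of 0.61 against 0.0045 over all tested genes. For 4 genes (Aurkb, Cdc6, Mybl2 and Rrm2) it was at least 2-fold higher, as it was for 7.71% of all tested genes. Between the Zfp276cko libraries the median absolute log2 difference of the 43 genes was 0.0701, against 0.641 between the ctrl libraries (0.0947 and 0.318 over all tested genes). In bulk cultures, fewer dividing cells and less RNA per dividing cell cannot be told apart.

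**Figure D1:**
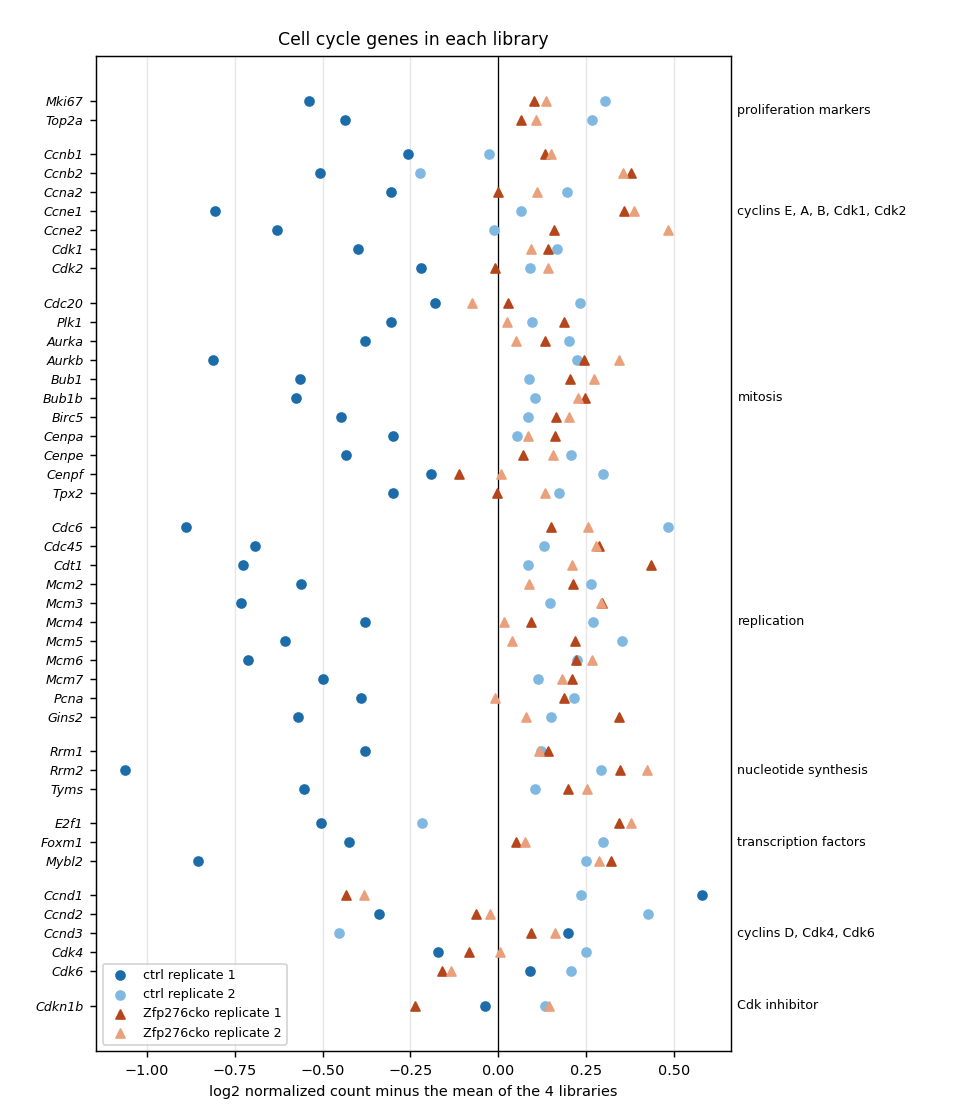
Each row is a cell cycle gene and each point a library, placed by its log2 normalized count minus the mean of the 4 libraries for that gene (circles, ctrl; triangles, Zfp276cko; grouped by role at the right). The dark circle of ctrl replicate 1 is the leftmost point in 39 of 43 rows, while the pale circle of ctrl replicate 2 lies among or near the triangles in most rows.

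Between the genotypes, edgeR called none of the 43 genes, where a call asked for an adjusted p up to 0.05, a log2 fold change of 0.6 or more in size and 20 or more normalized counts on average. It called 0% of all tested genes in either direction. At an unadjusted p with the same limits, 1 member was lower in Zfp276cko cultures (Ccnd1; 3.02% of all tested genes were lower) and 2 were higher (Ccnb2 and E2f1; 5.11% were higher). DESeq2 called Ccnd1 as lower (2.3% of its genes with an adjusted p were) and no member as higher (3.05% were). In 17 of 43 members the Zfp276cko libraries were both higher than either ctrl library, compared with 26.8% of all tested genes. In 2 members, Ccnd1 and Cdk6, both lay below, compared with 23.7%, and in 24 the groups overlapped. The log2 fold change ran from -0.82 to 0.72 with a median of 0.24, was positive in 36 members and negative in 7, and its median over all tested genes was -0.0013. For a single gene the exact permutation test with 2 against 2 libraries cannot go below p = 0.333.

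The positive median rested on ctrl replicate 1. Set against ctrl replicate 2 alone, the mean of the Zfp276cko libraries differed by a median of 0.0075, with 22 of 43 members above that library and the rest below. Set against ctrl replicate 1 alone the median difference was 0.55. The gap between the ctrl libraries was wider than the gap between the genotypes for 37 of 43 members, compared with 60.3% of all tested genes. With the fit repeated without ctrl replicate 1, edgeR called 1 member, Ccnd1, as lower (5.76% of all genes in that fit were) and 0 as higher (10.2% were). Without ctrl replicate 2 it called Ccnd1 as lower (7.77% of all genes in that fit were) and 21 members as higher (10.8% were). The remaining ctrl library was in each case assumed to vary as little as the Zfp276cko pair.

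**Figure D2:**
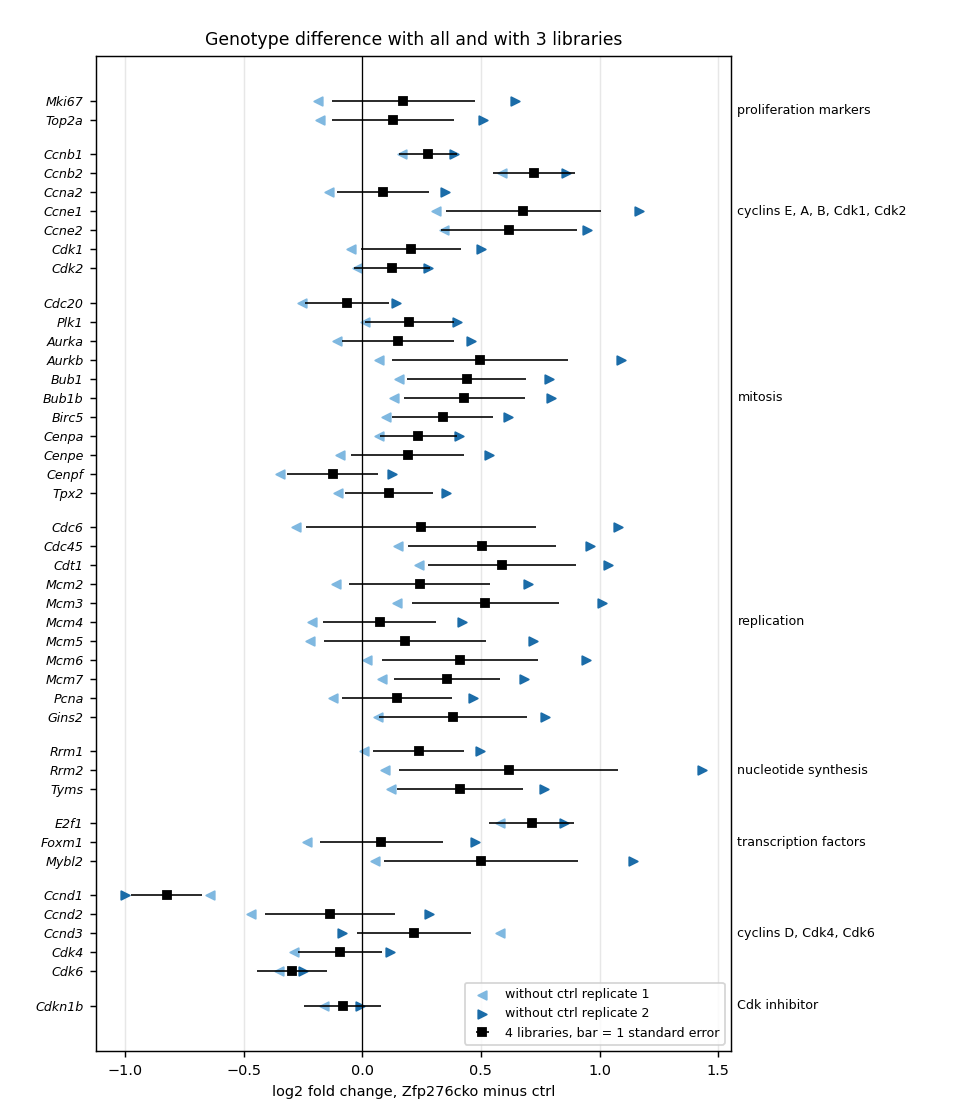
Log2 fold change of Zfp276cko over ctrl for each cell cycle gene with all 4 libraries (squares, with a bar of 1 standard error on each side), without ctrl replicate 1 (left-pointing) and without ctrl replicate 2 (right-pointing). Mki67 moves from -0.19 to 0.64 between the left-pointing and right-pointing marks, while Ccnd1 stays below 0 and Ccnb2 and E2f1 stay above 0.5 at every mark.

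Promoter sequence was compared because the members fall into a mitotic and a replication group that different factors are known to switch on. RefSeq promoters of build GRCm38, which run from 250 bases before to 50 after a gene's start, matched 34 of the 43 members. On both strands, the letters TTTGAA (CHR), CCAAT (the box bound by NF-Y) and any of TTTCCCGC, TTTGGCGC, TTTCGCGC and TTTGCCGC (E2F) were searched. CHR letters were found in 10 of 14 mitotic members with a promoter (71.4%), in 2 of 12 members for replication and nucleotides (16.7%) and in 20.2% of 27025 genes. All 10 mitotic members with CHR letters also held CCAAT (Aurka, Bub1b, Ccnb2, Cdc20, Cdk1, Cenpa, Cenpf, Mki67, Plk1 and Top2a), a pair found in 8.97% of all genes. E2F letters were found in 6 of the 12 replication and nucleotide members (50%; Cdc6, Cdt1, Mcm3, Mcm5, Mcm6 and Mcm7), in 1 of 14 mitotic members (7.14%; Cdk1) and in 2.61% of all genes. CCAAT was present in 92.9%, 75% and 41.1%. These are matches of letters, and E2F matches on opposite strands can overlap, as in Mcm5 and Mcm6. A gene with several starts (Ccnd3 and Mcm7 among the members) counted if any of its promoters matched.

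The 200 bases before the start are printed for 3 mitotic and 2 replication genes, 5′ to 3′ on the strand of the gene, to show both layouts. Capitals mark the letters searched for (the CHR letters, the CCAAT box, written ATTGG where it lies on the opposite strand, and the E2F letters on either strand). The stretches lie at chr7:135716380-135716579 (Mki67, minus strand), chr10:69352913-69353112 (Cdk1, minus strand), chr9:70421555-70421754 (Ccnb2, minus strand), chr1:128359706-128359905 (Mcm6, minus strand) and chr8:75109309-75109508 (Mcm5, plus strand) of GRCm38.
Mki67: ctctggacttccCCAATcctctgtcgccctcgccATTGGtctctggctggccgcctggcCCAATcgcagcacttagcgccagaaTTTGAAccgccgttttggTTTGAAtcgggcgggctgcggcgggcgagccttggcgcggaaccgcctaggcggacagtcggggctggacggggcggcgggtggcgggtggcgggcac
Cdk1: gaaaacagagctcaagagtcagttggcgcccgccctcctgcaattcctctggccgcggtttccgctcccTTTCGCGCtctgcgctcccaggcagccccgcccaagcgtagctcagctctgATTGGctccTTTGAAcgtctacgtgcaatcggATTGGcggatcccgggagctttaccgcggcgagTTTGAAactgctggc
Ccnb2: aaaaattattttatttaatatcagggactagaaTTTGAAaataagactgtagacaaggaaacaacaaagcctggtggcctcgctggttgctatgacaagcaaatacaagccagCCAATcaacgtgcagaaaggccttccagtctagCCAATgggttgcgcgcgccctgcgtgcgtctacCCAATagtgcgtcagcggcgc
Mcm6: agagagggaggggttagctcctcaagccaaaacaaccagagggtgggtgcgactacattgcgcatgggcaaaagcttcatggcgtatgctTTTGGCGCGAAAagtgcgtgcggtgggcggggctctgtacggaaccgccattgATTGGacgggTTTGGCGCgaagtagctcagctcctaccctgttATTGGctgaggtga
Mcm5: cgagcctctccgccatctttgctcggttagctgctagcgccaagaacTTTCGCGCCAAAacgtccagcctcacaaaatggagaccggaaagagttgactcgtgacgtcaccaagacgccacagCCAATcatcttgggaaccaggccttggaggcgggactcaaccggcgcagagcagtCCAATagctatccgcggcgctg

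Mki67 carries CCAAT boxes followed by a pair of TTTGAA stretches that start 116 and 98 bases before the gene. In Cdk1 the TTTGAA stretches start 71 and 15 bases before the gene, and an E2F stretch lies further away at 131 bases. Ccnb2 has CCAAT boxes at 87, 54 and 21 bases, and its nearer TTTGAA begins 4 bases after the start, outside the printed stretch. Mcm6 has E2F stretches at 110, 106 and 47 bases, and Mcm5 has them at 153 and 149 bases, with no TTTGAA in either. All 5 genes had their lowest value in ctrl replicate 1, and the order of the other libraries varied among them.

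**Figure D3:**
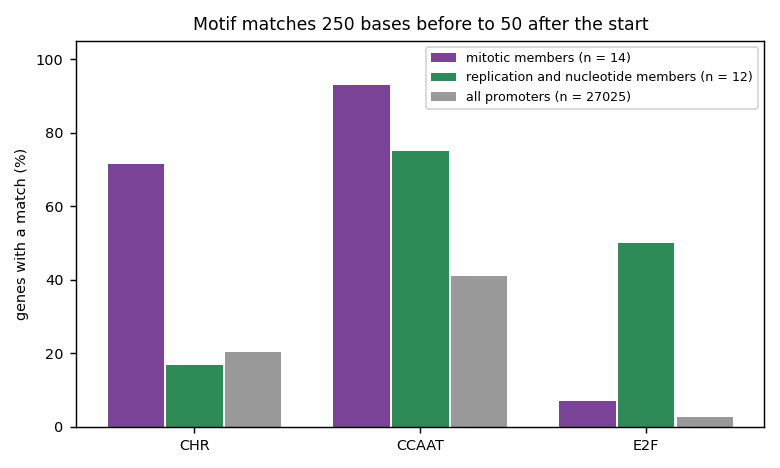
Bars give the percentage of genes whose promoter (250 bases before to 50 after the start) holds CHR, CCAAT or E2F letters, for 14 mitotic members, 12 replication and nucleotide members and all 27025 genes with a promoter. CHR is most frequent among mitotic members (71.4%) and E2F among replication and nucleotide members (50%).

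The markers by which dividing cells are usually counted followed the common pattern. Mki67, which coats mitotic chromosomes, had 3723 and 6679 normalized counts in the ctrl cultures (replicate 1 first, here and below) and 5798 and 5935 in the Zfp276cko cultures. Top2a, the topoisomerase that untangles copied DNA, had 3423, 5569, 4841 and 4987 in the same order. In both genes the Zfp276cko libraries lay between the ctrl libraries, nearer to the higher one. Log2 fold changes were 0.17 (SE 0.30, adjusted p = 0.824 with edgeR) for Mki67 and 0.13 (SE 0.26, adjusted p = 0.848) for Top2a, each smaller than its standard error. Set against ctrl replicate 2 alone, Mki67 was at -0.19 and Top2a at -0.18.

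Of the 7 cyclins and kinases of S phase and mitosis, 4 were higher in each Zfp276cko library than in either ctrl library, compared with 26.8% of all tested genes. Ccnb2, a cyclin that activates Cdk1 for mitosis, had 241 and 294 normalized counts in ctrl and 445 and 438 in Zfp276cko cultures. The gap between the genotypes was wider than that between the ctrl libraries, and it remained at 0.59 against ctrl replicate 2 alone. Its log2 fold change of 0.72 was the highest of the 43 members (SE 0.17, adjusted p = 0.195 with edgeR, 0.0584 with DESeq2). Ccnb1, the partner cyclin with the same task, had 806 and 946 in ctrl and 1056 and 1069.6 in Zfp276cko cultures, with a smaller log2 fold change of 0.28 (SE 0.12, adjusted p = 0.380), or 0.17 and 0.40 from ctrl replicates 2 and 1 alone.

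The E-type cyclins, which activate Cdk2 at the entry into S phase, showed the same separation with more spread. Ccne1 had 201 and 367 normalized counts in ctrl and 449.7 and 459 in Zfp276cko cultures. Ccne2 had 158 and 242 in ctrl, and 272 and 341 in Zfp276cko cultures. Log2 fold changes were 0.68 (SE 0.33, adjusted p = 0.412 with edgeR) for Ccne1 and 0.62 (SE 0.29, adjusted p = 0.400) for Ccne2, and they were 0.31 and 0.33 against ctrl replicate 2 alone. Exons of Ccne2 overlap those of Ints8 on the opposite strand over 17.4% of their length, and the strand setting of the counting is not given in the sources used here. The remaining 3 genes of this role did not separate the genotypes. Ccna2, the cyclin of S phase and G2, had 1143 and 1618 in ctrl and 1412 and 1524 in Zfp276cko cultures. Cdk1, the kinase of mitosis, had 987, 1459.5, 1433 and 1388, and Cdk2, the kinase of S phase, 575, 713, 666 and 738. In all 3, ctrl replicate 1 was lowest. Both Zfp276cko libraries lay below ctrl replicate 2 for Ccna2 and Cdk1, and on either side of it for Cdk2.

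The 11 genes that build and control the mitotic spindle summed to 7398 and 10699 normalized counts in ctrl and 10026 and 10287 in Zfp276cko cultures. Their median log2 fold change was 0.20, with 0.0089 against ctrl replicate 2 alone and 0.47 against ctrl replicate 1 alone, their median difference between ctrl replicates 2 and 1 was 0.53, and ctrl replicate 1 was lowest in all 11. In 5 of them each Zfp276cko library was higher than either ctrl library, compared with 26.8% of all tested genes. Aurkb, a kinase that corrects spindle attachments, had 265 and 542 in ctrl and 550.2 and 589 in Zfp276cko cultures (log2 fold change 0.50, SE 0.37, adjusted p = 0.578 with edgeR). Bub1 and Bub1b, kinases of the spindle checkpoint, had 357 and 560.4, and 511 and 818, in ctrl and 608 and 637, and 902 and 889, in Zfp276cko cultures. Birc5, which works in a complex with Aurkb, had 487, 703, 743 and 763, and Cenpa, the histone variant of centromeres, 589, 752, 811 and 768. In these 5 genes ctrl replicate 2 was closer to the Zfp276cko libraries than to ctrl replicate 1, at log2 differences of 0.069 to 0.15 below them.

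The other 6 overlapped. Cdc20, which starts anaphase by activating a ubiquitin ligase, had 666 and 887 normalized counts in ctrl and 769 and 717 in Zfp276cko cultures. Cenpf, a protein of kinetochores, had 1283, 1800.5, 1356 and 1472. These 2 genes were the mitotic genes with a negative log2 fold change, -0.064 (SE 0.18, adjusted p = 0.896 with edgeR) and -0.13 (SE 0.19, adjusted p = 0.797). Plk1, Aurka, Cenpe and Tpx2, which act in spindle assembly and chromosome movement, had log2 fold changes between 0.11 and 0.20 and their lowest value in ctrl replicate 1.

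Together the 11 genes for replication had 8686 and 14760.5 normalized counts in ctrl and 14755 and 13904 in Zfp276cko cultures, and the median log2 difference between ctrl replicates 2 and 1 was 0.82. Cdc6, which loads the Mcm helicase on origins, had 144 and 371 in ctrl and 295 and 317 in Zfp276cko cultures. Its ctrl libraries differed by 1.37 on the log2 scale, the widest gap of the 43 members, and both Zfp276cko libraries lay between them. Cdt1, the second loading factor, had 312 and 548 in ctrl and 698 and 597 in Zfp276cko cultures. The log2 fold changes were 0.25 (SE 0.48, adjusted p = 0.844 with edgeR) for Cdc6 and 0.59 (SE 0.31, adjusted p = 0.446) for Cdt1. From ctrl replicate 2 alone the differences were -0.28 for Cdc6 and 0.24 for Cdt1, and from ctrl replicate 1 alone 1.09 and 1.05.

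Mcm2 to Mcm7 encode the 6 subunits of the helicase that opens DNA at replication forks. Mcm6 had 1054 and 2017 normalized counts in ctrl and 2013 and 2075 in Zfp276cko cultures, so that ctrl replicate 2 was equal to the Zfp276cko libraries within their spread. Mcm3 had 706 and 1297 in ctrl and 1439 and 1434 in Zfp276cko cultures, and Mcm7 1415 and 2162 in ctrl and 2311 and 2268 in Zfp276cko cultures. In these 2 subunits the Zfp276cko libraries did not overlap with ctrl and were higher (26.8% of all tested genes were), and in the other 4 the groups overlapped. Mcm5 had 819 and 1590.0 in ctrl and 1449 and 1280.1 in Zfp276cko cultures. Over the 6 subunits the log2 fold change ran from 0.073 (Mcm4) to 0.52 (Mcm3, with 0.15 from ctrl replicate 2 alone and 1.02 from ctrl replicate 1 alone). The difference between ctrl replicates 2 and 1 was larger and ran from 0.61 (Mcm7) to 0.96 (Mcm5).

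Cdc45 and the GINS complex join the helicase to make it active. Cdc45 had 215 and 380.4 normalized counts in ctrl and 423 and 421 in Zfp276cko cultures, which did not overlap, and its log2 fold change was 0.50 (SE 0.31, adjusted p = 0.504 with edgeR), with 0.15 from ctrl replicate 2 alone and 0.97 from ctrl replicate 1 alone. Gins2, a GINS subunit, had 141, 233, 266 and 222, but 67.3% of its exon length lies opposite exons of Gse1, so that its counts may hold reads of that gene. Pcna, the sliding clamp of the polymerases, had 2002 and 3046 in ctrl and 2984 and 2607 in Zfp276cko cultures, again with ctrl replicate 1 lowest.

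Among the 3 genes for DNA building blocks, Rrm2 varied most. This subunit of ribonucleotide reductase, made mainly in S phase, had 627 and 1601 normalized counts in ctrl and 1663 and 1754 in Zfp276cko cultures. The mean of the Zfp276cko libraries lay 0.093 above ctrl replicate 2 on the log2 scale, while the ctrl libraries were 1.35 apart. Rrm1, the stable subunit of the same enzyme, had 2426, 3437, 3486 and 3424, with ctrl libraries 0.50 apart. Tyms, which makes thymidylate, had 234 and 369 in ctrl and 394 and 409 in Zfp276cko cultures. Log2 fold changes were 0.62 (SE 0.46), 0.24 (SE 0.19) and 0.41 (SE 0.26) for Rrm2, Rrm1 and Tyms, with adjusted p of 0.578, 0.605 and 0.519 by edgeR. For Tyms the difference was 0.12 from ctrl replicate 2 alone and 0.78 from ctrl replicate 1 alone. For Rrm1 it was 0.0075 and 0.51 in the same order.

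Of the transcription factors that drive these genes, E2f1 separated the genotypes most widely. E2f1, which switches on genes for S phase, had 210.2 and 257 normalized counts in ctrl and 378 and 387 in Zfp276cko cultures. The genotypes were 0.71 apart on the log2 scale (SE 0.18, adjusted p = 0.207 with edgeR, 0.0837 with DESeq2), the ctrl libraries 0.29, and the difference against ctrl replicate 2 alone was 0.58. Mybl2, the gene of B-Myb, had 112 and 239.7 in ctrl and 252 and 246 in Zfp276cko cultures. Foxm1 had 858, 1417, 1194 and 1213. For Mybl2 the Zfp276cko libraries were higher than either ctrl library, by 0.053 against ctrl replicate 2 alone, and for Foxm1, at -0.24 against that library, the groups overlapped. Over the 11 replication genes the median difference was 0.019 from ctrl replicate 2 alone and 0.78 from ctrl replicate 1 alone. A link between E2f1 and the level of other genes was not tested. E2f1 is encoded on the minus strand at chr2:154559407-154569892 and Ccnb2 on the minus strand at chr9:70407692-70421547 (mm10), and no exons of other genes lie opposite theirs.

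Of the 5 G1 cyclins and their kinases, ctrl replicate 1 was lowest for 2, Ccnd2 and Cdk4. Ccnd1, the D-type cyclin that mitogens induce, had 5447 and 4291 normalized counts in ctrl and 2699 and 2800.0 in Zfp276cko cultures. Both Zfp276cko libraries were lower than both ctrl libraries, and the gap between the genotypes exceeded the gap within ctrl. The log2 fold change was -0.82 (SE 0.15), the adjusted p 0.158 with edgeR and 0.00128 with DESeq2, and against ctrl replicate 2 alone the difference was -0.64. Ccnd1 is encoded on the minus strand at chr7:144929931-144939925 (mm10), and 23.4% of its exon length lies opposite exons of LTO1. Among the 43 members it had the smallest adjusted p by edgeR. Ccnd1 and Ccnd3 were the members with their highest value in ctrl replicate 1.

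The other D-type cyclins did not follow Ccnd1 and did not separate the genotypes. Ccnd2 had 1325 and 2252 normalized counts in ctrl and 1604 and 1650.4 in Zfp276cko cultures. Ccnd3 had 4278 and 2727 in ctrl and 3975 and 4173 in Zfp276cko cultures. The ctrl libraries were thus in opposite order for these 2 cyclins, and the Zfp276cko libraries lay between them in both. Log2 fold changes were -0.14 (SE 0.27, adjusted p = 0.849 with edgeR) for Ccnd2 and 0.22 (SE 0.24, adjusted p = 0.712) for Ccnd3. Cdk6 had 359 and 388 in ctrl and 301 and 307 in Zfp276cko cultures, below both ctrl libraries, with a log2 fold change of -0.30 (SE 0.15, adjusted p = 0.427). Cdk4 had 7347, 9832, 7803 and 8291, and 19.7% of its exon length lies opposite exons of Tspan31. Per kilobase of exon, Cdk4 had the highest level of the 43 members at a mean of 108 FPKM, above 98.2% of tested genes, and Cdk6, which can take its place, the lowest at 1.02 FPKM.

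**Figure D4:**
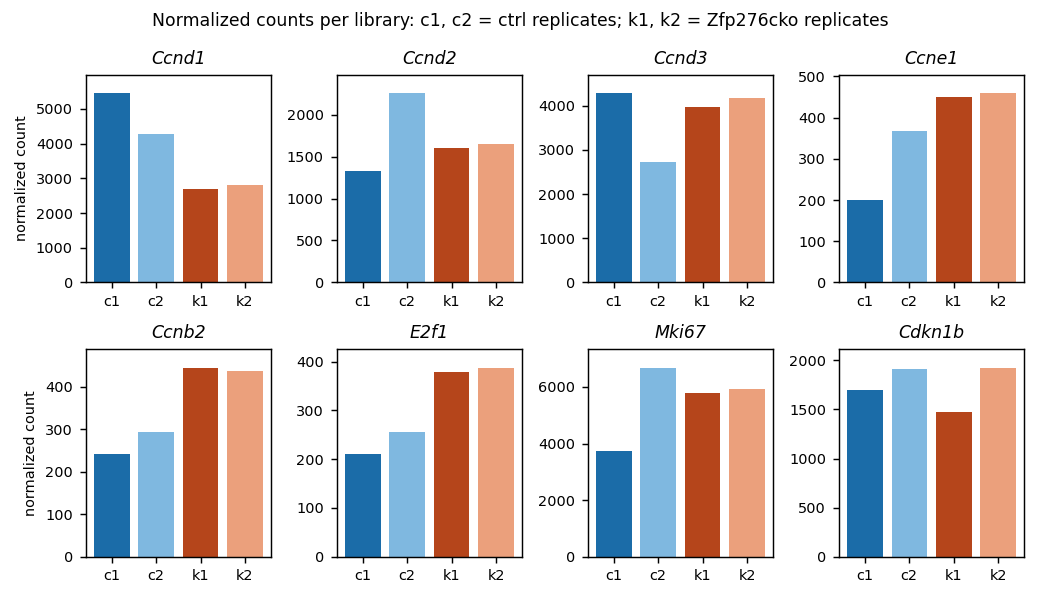
Bars from 0 give the normalized count of 8 genes in ctrl replicates 1 and 2 (c1, c2) and Zfp276cko replicates 1 and 2 (k1, k2). Ccnd1 is lower in both Zfp276cko libraries and Ccnb2 and E2f1 are higher in both, while for Ccnd2, Ccnd3, Mki67 and Cdkn1b the groups overlap.

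Cdkn1b, the Cdk inhibitor that accumulates when OPCs stop dividing, showed no separation. It had 1698 and 1909 normalized counts in ctrl and 1479 and 1925 in Zfp276cko cultures, the widest gap between Zfp276cko libraries of the 43 members at 0.38 on the log2 scale. The log2 fold change was -0.083 (SE 0.16, adjusted p = 0.846 with edgeR). Over a further 21 inhibitor, retinoblastoma and E2f genes the log2 fold change had its median at 0.10 (-0.058 from ctrl replicate 2 alone and 0.23 from ctrl replicate 1 alone), with 7 above and 4 below in both Zfp276cko libraries (26.8% and 23.7% of all tested genes), 0 called by edgeR, 0 at an unadjusted p with the same limits and 0 by DESeq2. Cdkn1a, the most abundant of these per kilobase and a target of p53, had 4779 and 2516 in ctrl and 4646 and 4593 in Zfp276cko cultures, so that here ctrl replicate 2 was the one apart. Cdkn2a, which encodes inhibitors of Cdk4 and of Mdm2, had the highest log2 fold change, 0.76 (SE 0.29, adjusted p = 0.334 with edgeR), from 109 and 72.0 in ctrl to 149 and 158 in Zfp276cko cultures. It differed by 1.09 from ctrl replicate 2 alone and 0.49 from ctrl replicate 1 alone. Cdkn1c had the lowest log2 fold change, -0.66 (SE 0.39, adjusted p = 0.490 with edgeR), with 1219 and 2659 in ctrl and 1187 and 1269 in Zfp276cko cultures. Its difference was -1.12 from ctrl replicate 2 alone and 0.0095 from ctrl replicate 1 alone.

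Most genes of the same processes outside the 43 were also lowest in ctrl replicate 1. Of 34 other genes for replication and S phase, edgeR called 0, as it did at an unadjusted p with the same limits, and DESeq2 called 0. In this list ctrl replicate 1 was lowest for 30. Both Zfp276cko libraries were higher than either ctrl library for 7 genes and lower for 3 (26.8% and 23.7% of all tested genes were). The median log2 fold change was 0.17, and the median difference was -0.080 from ctrl replicate 2 alone and 0.53 from ctrl replicate 1 alone. Tk1, a thymidine kinase of S phase, had the highest, 0.98 (SE 0.45, adjusted p = 0.400), with 97.4 and 234 normalized counts in ctrl and 329 and 325 in Zfp276cko cultures, and differed by 0.48 from ctrl replicate 2 alone and 1.74 from ctrl replicate 1 alone. Dnmt1, the methyltransferase that follows the fork, was the most abundant of them per kilobase and had 3143, 4674, 4138 and 4054.

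Of 40 other genes for mitosis, ctrl replicate 1 was lowest for 37. Both Zfp276cko libraries were higher than either ctrl library for 13 genes and lower for 1 (26.8% and 23.7% of all tested genes were). The median log2 fold change was 0.22, and the median difference was -0.0060 from ctrl replicate 2 alone and 0.46 from ctrl replicate 1 alone. None was called by edgeR. At an unadjusted p with the same limits 1 of the 40 was higher (5.11% of all tested genes were), and DESeq2 called 1 as higher (3.05% of its genes were), so that neither count exceeded the share over all genes. The gene was Pttg1 in both, the securin that holds back separase until anaphase, with 266 and 295 normalized counts in ctrl and 442 and 485 in Zfp276cko cultures (log2 fold change 0.72, SE 0.15, adjusted p = 0.181 with edgeR, 0.0379 with DESeq2). Both its Zfp276cko libraries were higher than either ctrl library. Cdc25c, the phosphatase that activates Cdk1, had the lowest log2 fold change of this list at -0.19 (SE 0.32, adjusted p = 0.812 with edgeR). It differed by -0.53 from ctrl replicate 2 alone and 0.24 from ctrl replicate 1 alone, so that its direction turned with the ctrl library. Cks1b, a subunit of Cdk complexes, was the most abundant of the list per kilobase and had 451, 608, 642 and 598.

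Among markers of other cells, most fibroblast and vessel genes were highest and most neuronal genes lowest in ctrl replicate 1. Microglial and astrocyte genes were mixed. The part of these cells in the level of cell cycle genes was not tested. For fibroblasts and vessels, 10 of 12 genes were tested, and all 10 were higher in ctrl replicate 1 than in ctrl replicate 2. Fn1 was the most abundant per kilobase, with 5949 normalized counts in ctrl replicate 1 against 638, 448 and 427 in ctrl replicate 2 and the Zfp276cko libraries. Col1a2, a collagen of fibroblasts, had 2703 against 41.6, 49.8 and 41.2, while Cldn5 of vessels was at 0 in all libraries and Vtn at 2 counts or fewer. Of 11 tested neuronal genes, ctrl replicate 1 was lowest for 9, with a median log2 difference of 3.74 between ctrl replicates 2 and 1. The list summed to 18038, 31399, 22408 and 24584, with Tubb3 the most abundant per kilobase. Dcx of young neurons had 2097 and 6014 in ctrl and 6529 and 7284 in Zfp276cko cultures, and Slc17a7 of excitatory neurons had between 2 and 9 counts per library and was not tested.

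The 16 microglial genes summed to 95505 normalized counts in ctrl replicate 1, against 58279 in ctrl replicate 2 and 69271 and 71165 in Zfp276cko cultures. Taken singly they were mixed, and 4 of 16 were higher in ctrl replicate 2 than in ctrl replicate 1. The mean of the Zfp276cko libraries lay above ctrl replicate 2 for 14 of 16. Its median difference was 0.66 from ctrl replicate 2 alone and -0.35 from ctrl replicate 1 alone. Ctss was the most abundant per kilobase, and DESeq2 called Fcrls as lower and Ptprc as higher in Zfp276cko cultures (2.3% and 3.05% of all its genes were called so). The 11 tested astrocyte genes summed to 49134, 46201, 45340.5 and 43013, with S100b the most abundant and Gjb6 at 0. These close sums hid opposite differences, as 6 of the 11 were higher in ctrl replicate 2 than in ctrl replicate 1. The median absolute log2 difference between the ctrl libraries was 1.03, against 0.318 over all tested genes. Of 12 oligodendrocyte genes, 10 were lower in both Zfp276cko libraries (23.7% of all tested genes were) and DESeq2 called 8 as lower (2.3% of all its genes were), with a median log2 fold change of -0.87. Their median difference was -1.02 from ctrl replicate 2 alone and -0.55 from ctrl replicate 1 alone. Of 12 OPC genes, 8 were lower in both Zfp276cko libraries (23.7% of all tested genes were) and DESeq2 called 5 as lower (2.3% of all its genes were), with a median log2 fold change of -0.49. For these the median difference was -0.63 from ctrl replicate 2 alone and -0.33 from ctrl replicate 1 alone. EdgeR called 0 genes in any of these lists of cell markers, and at an unadjusted p with the same limits 10 oligodendrocyte, 4 OPC, 1 of 16 microglial and 1 of 10 fibroblast and vessel genes were lower, compared with 3.02% of all tested genes. By the same measure 1 OPC gene (Sox4), 1 microglial gene (Ptprc) and 1 gene of the fibroblast and vessel list (Pecam1) were higher, compared with 5.11%, and 0 astrocyte and 0 neuronal genes passed. DESeq2 also called Acta2, an actin of smooth muscle, as lower, with 914 and 284 normalized counts in ctrl and 88.7 and 78.2 in Zfp276cko cultures. The OPC list contains Gpr17, of committed precursors, with 113405 and 69766 in ctrl and 43296 and 41092 in Zfp276cko cultures. Pdgfra, the receptor of dividing OPCs, had 10049 and 15501 in ctrl and 11842 and 11561 in Zfp276cko cultures. Ctrl replicate 1 was lowest for 3 of the 12 OPC genes, Pdgfra among them.

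**Figure D5:**
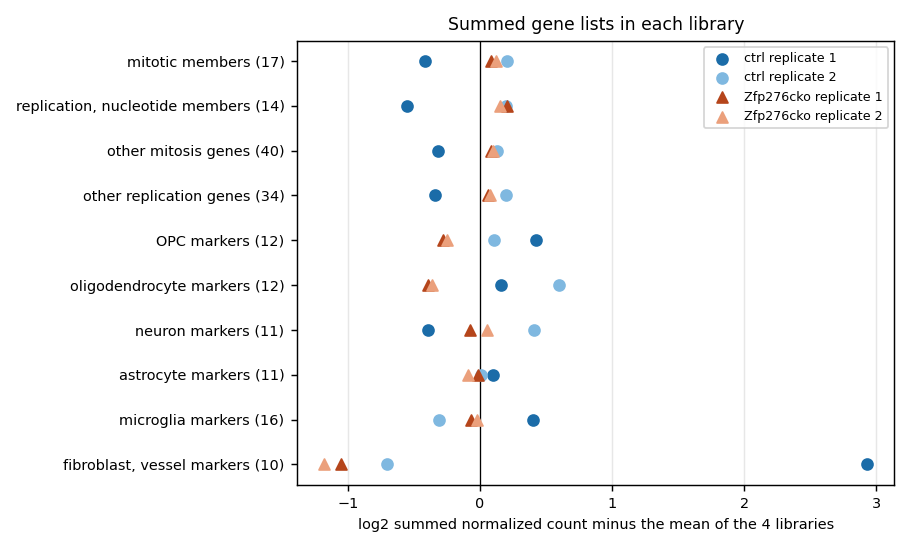
Each point is the log2 summed normalized count of a gene list in a library minus the mean of the 4 libraries for that list (circles, ctrl; triangles, Zfp276cko; number of tested genes in brackets). All 4 cell cycle lists are lowest in ctrl replicate 1, where fibroblast and vessel genes are highest, and oligodendrocyte and OPC lists are lower in both Zfp276cko libraries.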

How the data were processed

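RNA-Seq was performed on 1° mouse OGCs at 3ddiff, with 2 preparations per genotype. The authors mapped reads to mm10 and deposited whole-number counts per Ensembl gene symbol without normalization. The submitters' processing notes name STAR 2.5.4a and featureCounts 1.5.1, whereas the methods of the study name HTSeq as the counter, with a stated Ensembl annotation release, and the strand setting is not given in the sources used here. Genes were kept with filterByExpr (15766 genes, 99.9% of counts), scaled with TMM and compared with edgeR 4.0.16 (quasi-likelihood test, Benjamini-Hochberg adjustment over all tested genes) in R 4.3.3, and with DESeq2 1.42.0 as an alternative. Calls were made at adjusted p of 0.05 or less, a log2 fold change of 0.6 or more in either direction and 20 or more normalized counts on average. Differences between single libraries were computed on log2(normalized count + 0.5). Floors for genes at or near 0 were 3 counts. Gene positions, exon lengths for FPKM and exon overlaps came from the GENCODE annotation of mm10, and promoters from RefSeq (GRCm38). Zfp276 and all 43 members could be named. Values per library were given for members with the largest fold change, the highest level per kilobase or no overlap within their role, and for others of the same role. From each other list the most abundant gene per kilobase and those with the largest and smallest log2 fold change were named. A result that this rule covers is not reported here. Dcx, Pdgfra, Acta2, Mcm4, Mcm5 and genes at or near 0 were chosen after their values were seen. Members and lists were chosen with earlier results of these data known. Sgol1 was matched as Sgo1, and of 2 entries for Itgam the first was used. Alternatives were other size factors, other filters, DESeq2, an unadjusted p, no limit on fold change, a replicate block, leaving out each library and a shorter promoter window.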

Additional observations from a re-analysis of the deposited data

How the results depend on the processing

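The median log2 fold change of the 43 members lay between 0.22 and 0.26 with the size factors of DESeq2, without a filter on low counts, with at least 10 counts in every library, with DESeq2 and with a replicate block, and ran from 0.0085 (without ctrl replicate 1) to 0.53 (without ctrl replicate 2) when a library was left out. Replicate numbers did not pair the samples: across 14324 genes the difference of replicate 2 from replicate 1 correlated with r = 0.0067 between genotypes, 2 pairs allow no further check, and the replicate block called 0 genes and left the members' median at 0.25. Over all genes edgeR called 0, but 8 were higher without a filter, 450 higher and 339 lower by DESeq2, and 806 higher and 476 lower at an unadjusted p. With a library left out the counts ran from 0 to 1792 higher and from 0 to 1286 lower (0 without either Zfp276cko library, 1689 and 952 without ctrl replicate 1). Members called were 2 higher and 1 lower at an unadjusted p, 1 lower by DESeq2, and from 0 to 21 higher and from 0 to 1 lower with a library left out. The direction of 20 members turned in at least 1 of these fits. Without ctrl replicate 1 it turned for 14, whose log2 fold changes with a library left out ran from -0.11 to 0.46 (Aurka), -0.14 to 0.35 (Ccna2), -0.28 to 1.08 (Cdc6), -0.048 to 0.50 (Cdk1), -0.022 to 0.28 (Cdk2), -0.092 to 0.53 (Cenpe), -0.23 to 0.47 (Foxm1), -0.11 to 0.70 (Mcm2), -0.21 to 0.42 (Mcm4), -0.22 to 0.72 (Mcm5), -0.19 to 0.64 (Mki67), -0.12 to 0.47 (Pcna), -0.18 to 0.51 (Top2a) and -0.10 to 0.35 (Tpx2). Without ctrl replicate 2 it turned for 5, which ran from -0.47 to 0.28 (Ccnd2), -0.084 to 0.58 (Ccnd3), -0.25 to 0.14 (Cdc20), -0.29 to 0.12 (Cdk4) and -0.35 to 0.13 (Cenpf), and without Zfp276cko replicate 1 for Cdkn1b, from -0.28 to 0.099. Ccnd1 stayed at -0.64 or lower and Ccnb2 between 0.59 and 0.86. In a promoter window from 100 bases before the start, CHR shares of the members were as before, E2F fell to 33.3% of replication and nucleotide members and to 0% of mitotic members, CCAAT fell to 66.7% and 78.6%, and over all genes CHR fell to 9.23%, E2F to 1.45% and CCAAT to 26.3%. The cause of these changes was not tested. With 2 libraries per genotype and the spread of the ctrl pair, the members' standard errors by edgeR ran from 0.12 to 0.48. Their part in the number of calls was not tested.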
